A study of Mus musculus with 27 samples.

Results

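The 8 anti-HuR ribonucleoprotein immunoprecipitation (RIP) libraries of cells given DMSO or LPS with TM7nox are described here, out of 27 libraries in the series. They were taken by their labels: 4 libraries of LPS+TM7nox and 4 of DMSO, numbered 1 to 4 in each group. All came from RAW 264.7, an established mouse macrophage cell line, and each library was made with a strand-specific kit for low RNA input. LPS is the lipopolysaccharide of bacterial outer membranes, and TM7nox is one of the tanshinone mimics, small molecules built to interfere with HuR. The LPS+TM7nox cells had LPS at 1 µg/ml and TM7nox at 10 µM, and the DMSO cells had the solvent alone, each for 6 h and with the same number of cells per sample. Read beside them were libraries of total RNA (4 a treatment), of the RIP from cells given LPS with DMSO (4), and of a control IgG (1 a treatment, always replicate 3). Because the treated cells differ from the DMSO cells by LPS and by TM7nox together, this comparison by itself does not separate LPS from TM7nox. For some of the RNAs and lists, though not for all, values against or from the RIP libraries of LPS alone are given beside it. Nothing in the labels says that the replicates were separate cultures, so the p-values measure only the spread between these samples, which may be technical.

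HuR, the product of Elavl1, binds U-rich and AU-rich stretches, mostly in the 3′ untranslated region (UTR) of mRNAs, and is known for raising the stability and translation of many short-lived mRNAs. In macrophages its known targets include mRNAs of cytokines and inflammatory enzymes, whose AU-rich elements are also bound by decay factors such as the protein encoded by Zfp36. In a RIP the antibody recovers HuR with the RNA attached to it, so a transcript's share of the library depends both on its abundance in the cell and on how much of it HuR holds.

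The RIP libraries held 20704663 to 35143212 counts in DMSO and 19816312 to 41449233 in LPS+TM7nox, and the total RNA libraries 2728534 to 27543656 and 16258731 to 26582325. RNA DMSO replicate 1 was the shallow one, and without it 6209 genes were called in total RNA beside 5850, and 5 beside 7 in the test of RIP against RNA changes. Levels are CPM, counts scaled to a common library size with TMM factors, a method that sets the typical gene equal between libraries. The TMM factors were 0.938 to 0.988 in the DMSO RIP libraries and 0.513 to 0.671 in the LPS+TM7nox ones. Scaled by library size alone, the median log2 fold change of all genes was -0.63 in place of 0.00, so every change below is relative to the typical gene. DMSO replicate 2 stood apart with 28723 genes detected, against 18588 to 22432 in the other 7 libraries, and without it 2946 genes were called higher and 2916 lower in the comparison below, beside 3412 and 3141 with it. Macrophage markers were present in both groups: 9 of 10 macrophage markers averaged at least 1 CPM in each, with summed levels of 1227 to 1959 CPM in DMSO and 931 to 2064 CPM in LPS+TM7nox, and Mertk was the one below. The B cell list summed to 0.152 to 0.643 and 14.5 to 32.5 CPM, with Pax5 as nearly all of the latter. The T cell list summed to 1.97 to 3.08 and 7.22 to 8.47 CPM through Lck, with Cd3g and Cd8a at 0 in LPS+TM7nox, and the endothelial list to 0.753 to 1.52 and 3.25 to 4.77 CPM, mostly through Cdh5. Neutrophil, fibroblast and epithelial lists each summed to less than 1 CPM in all 8 libraries. The part of these markers in the results was not tested.

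The 3′ UTRs of some of the RNAs named in the results are shown here in part. For each, the 30-base window of the annotated 3′ UTR richest in T is printed 5′ to 3′ as DNA, with capitals marking every ATTTA, the core of an AU-rich element, or, where the window has none, its longest run of T. Choosing the window richest in T favours a U-rich stretch in any 3′ UTR, so the windows were no test of HuR binding. Of the 30 bases, 13 were T in the Pola2 window and 11 in that of Slfn2. Positions are on GRCm39 with the GENCODE M39 annotation. Actb is shown because it took the largest share of counts in every RIP library, Sdc4 because of its share in the LPS+TM7nox libraries, Tnf and Eno2 because their change in the RIP was below that in RNA, Cxcl2, Il1b and Zfp36 as LPS-responsive RNAs with clustered motifs, and Pola2, Slfn2 and Hnrnpc because they rose more in the RIP than in RNA.
Actb: gTTTTTTTTTTTTTTTTTTTTTTTTTTTTT
Sdc4: tgTTTTTTTTTTTTTTTTTTTTTTaatgct
Tnf: ttattATTTAttATTTATTTAttATTTAtt
Eno2: ttATTTATTTATTTATTTATTTATTTAttt
Cxcl2: ttATTTATTTAtctatgtATTTATTTAttt
Il1b: cttacctATTTATTTAtgtATTTAttgatt
Zfp36: tttATTTAtgacgactttATTTAttgtatt
Pola2: cTTTTTTTgtatgaatcaaatacagcgtgt
Slfn2: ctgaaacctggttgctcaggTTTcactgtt
Hnrnpc: aaagtttttcaattacaTTTTTTTTTTaat
The Tnf window, at chr17:35418657-35418686 on the minus strand, and the Eno2 window, at chr6:124737723-124737752 on the minus strand, are tilings of ATTTA, and their whole 3′ UTRs held 8 and 10 copies. A630001G21Rik, not printed here, also had a change in the RIP below that in RNA. Its 3′ UTR of 1110 bases had no ATTTA. The Actb window, at chr5:142889405-142889434 on the minus strand, is nearly a pure T run in a 3′ UTR with 1 ATTTA, and that of Sdc4, at chr2:164267049-164267078 on the minus strand, is alike. Neither Pola2, at chr19:5990601-5990630 on the minus strand, nor Slfn2, at chr11:82961261-82961290 on the plus strand, had an ATTTA in its 3′ UTR, while Hnrnpc, at chr14:52311707-52311736 on the minus strand, had 6. Cxcl2 (chr5:91053185-91053214, plus strand) held 11 copies, Il1b (chr2:129206722-129206751, minus strand) 4 and Zfp36 (chr7:28076381-28076410, minus strand) 3.

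Many RNAs differed in the RIP between LPS+TM7nox and DMSO: of 13614 genes tested, 3412 (25.1%) were higher with LPS+TM7nox and 3141 (23.1%) lower. Lif, Il6 and Cxcl2, which encode inflammatory messengers, and Tpbg, a membrane glycoprotein gene, had the largest increases among called RNAs with a gene name, a mean of at least 5 CPM and no overlap between the groups, a rule that leaves out RNAs of lower mean such as Csf2. With TMM scaling all 20 cytokine genes tested were higher and all 20 mitosis genes tested lower. The counts of every gene list below stand beside the shares of all genes, 25.1% higher and 23.1% lower. Calls rest on edgeR's quasi-likelihood test, with Benjamini-Hochberg adjusted p-values over all genes tested and a threshold of 0.05, and every adjusted p below comes from it. At least 2-fold changes were seen for 1970 genes called higher and 2085 called lower, and at least 8-fold changes for 370 and 162. The 4 libraries of one group lay wholly apart from the 4 of the other for 5899 of all genes tested (43.3%). Scaled by library size alone, the calls were 1463 higher and 6578 lower, so the balance of higher against lower calls depends on the scaling. Replicates 1 and 2 alone gave 4505 calls and replicates 3 and 4 alone 5411, beside 6553 with all 4.

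**Figure D1:**
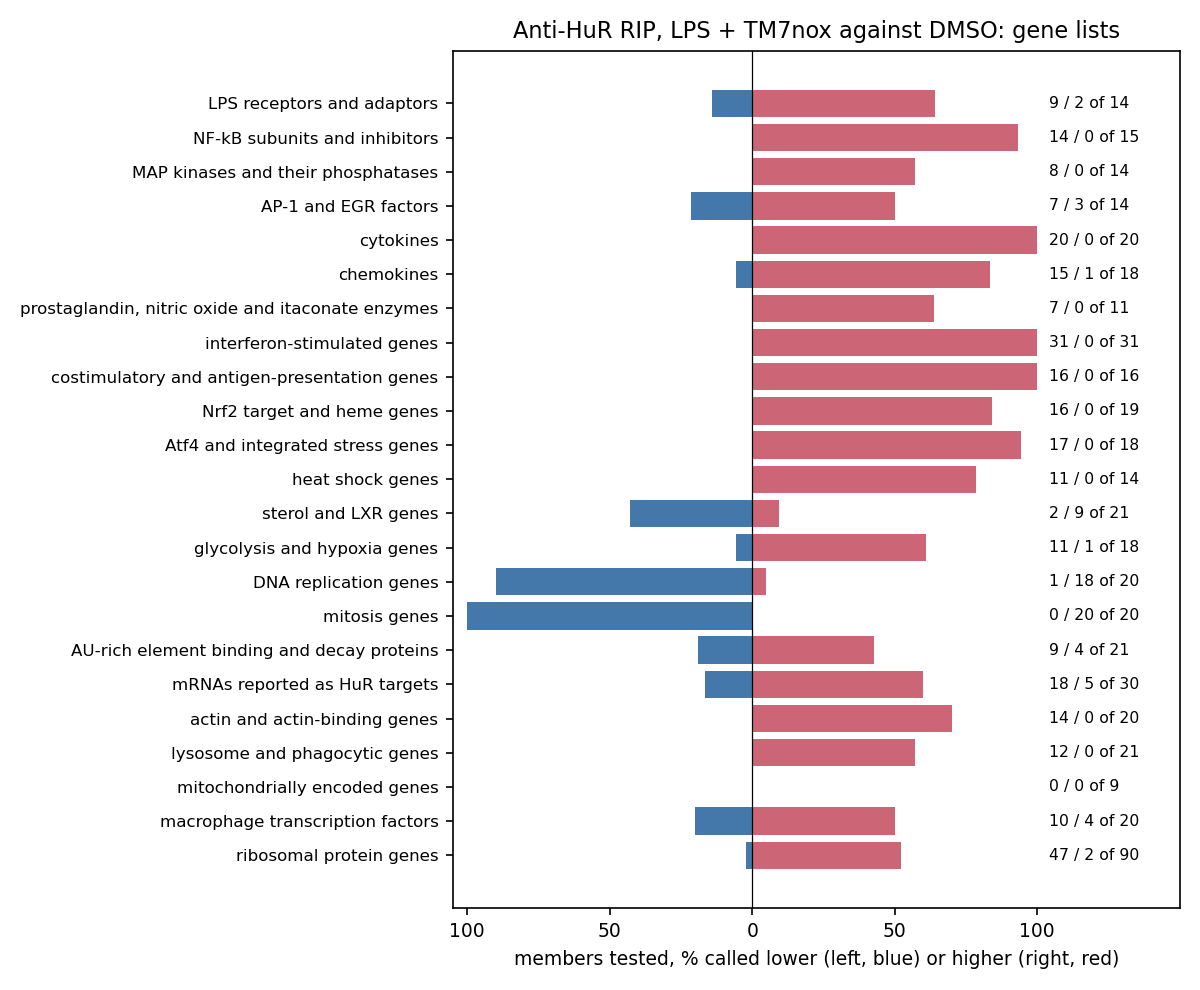
Share of the tested members of each gene list called higher (red, right) or lower (blue, left) in the anti-HuR RIP of LPS+TM7nox against DMSO, in % of members, with the counts called higher and lower and the number tested at the right. All 20 cytokine genes and 31 interferon-stimulated genes were called higher and all 20 mitosis genes lower, under TMM scaling.

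By that rule the largest increase was that of Lif, a cytokine of the interleukin 6 family, which stood at 4.67, 1.85, 1.61 and 2.91 CPM in the 4 DMSO libraries and at 911, 506, 2393 and 6417 CPM in the 4 LPS+TM7nox libraries. The lowest treated library was over 100 times the highest untreated one, and the treated libraries themselves spread more than 10-fold. Lif thus rose by 9.80 ± 0.65 (SE) on the log2 scale, with an adjusted p of 4.29e-07. Without LPS+TM7nox replicate 4 the value for Lif was 8.73, below the 8.94 of Tpbg in the same fit, and in replicates 1 and 2 alone it was 7.69, and without DMSO replicate 3 it was again below Tpbg, at 9.56 and 9.58, so the order of the 2 is not firm. In total RNA the log2 fold change of Lif was 6.18, and the difference between both changes did not pass the test (adjusted p = 0.535). Il6, the interleukin 6 gene, was almost absent from the DMSO RIP, at 0.102, 0.0331, 0.121 and 0.251 CPM, and reached 34.3, 42, 137 and 54.1 CPM with LPS+TM7nox. On the log2 scale Il6 rose by 9.02 ± 0.79 (SE, adjusted p = 2.52e-08). Cxcl2, a neutrophil attractant, went from 16.1, 11, 9.26 and 11.4 to 5874, 2478, 6902 and 7519 CPM, with replicate 2 lowest of the treated libraries. Its log2 fold change came to 8.83 ± 0.28 (SE) at an adjusted p of 3.48e-10. Il1a, the interleukin 1 alpha gene, went from 0.135, 0.231, 0.121 and 0.552 to 69, 91.9, 125 and 99.7 CPM. For Il1a the fit gave a log2 fold change of 8.56 ± 0.39 (SE, adjusted p = 3.48e-10).

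Tpbg, which encodes a membrane glycoprotein that dampens Wnt signalling, was at 0.0677, 0.0661, 0.182 and 0.0502 CPM in DMSO and 49.1, 53.9, 58.2 and 64.6 CPM in LPS+TM7nox. The log2 fold change was 9.04 ± 0.38 (SE, adjusted p = 1.25e-11). The treated libraries were tight, and the IgG library of the same treatment held 1.12 CPM. Pax5, a transcription factor best known from B cells, went from 0.135, 0.0331, 0.0607 and 0 to 14.3, 19, 19.2 and 32.2 CPM. Pax5 thus rose by 8.23 ± 0.62 (SE) on the log2 scale, with an adjusted p of 9.83e-10. Without DMSO replicate 1 it was 8.91. Cd79a, another B cell marker, averaged 0.291 CPM in DMSO and 0.193 CPM in LPS+TM7nox, and its counts were too low to be tested. Vmn2r90, named as a vomeronasal receptor gene, went from 0, 0.0661, 0.0607 and 0.0502 to 11.6, 12.6, 14.2 and 12 CPM and had no read in the IgG libraries of DMSO and LPS+TM7nox. On the log2 scale Vmn2r90 rose by 7.92 ± 0.60 (SE, adjusted p = 4.79e-10). The other 3 RNAs among the 10 largest increases were Serpinb2, a protease inhibitor of activated macrophages (log2 fold change 7.66 ± 0.84), Ccl5, a T cell attractant (7.62 ± 0.30), and Csf3, the granulocyte colony-stimulating factor gene (7.56 ± 0.32). GENCODE M39 places other genes across 7 of these 10 on either strand, namely Pax5 (chr4:44524757-44710487), Tpbg (chr9:85724433-85729108), Serpinb2 (chr1:107428593-107463208), Il6 (chr5:30218112-30224979), Il1a (chr2:129140291-129152098), Ccl5 (chr11:83416602-83425942) and Csf3 (chr11:98592089-98594458). Other RNAs named below, such as Ung, Il1b and Elavl1, have such partners too. Whether the counts used the strand is not given in the sources used here, so reads of such partners cannot be told apart from those of the genes named.

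**Figure D2:**
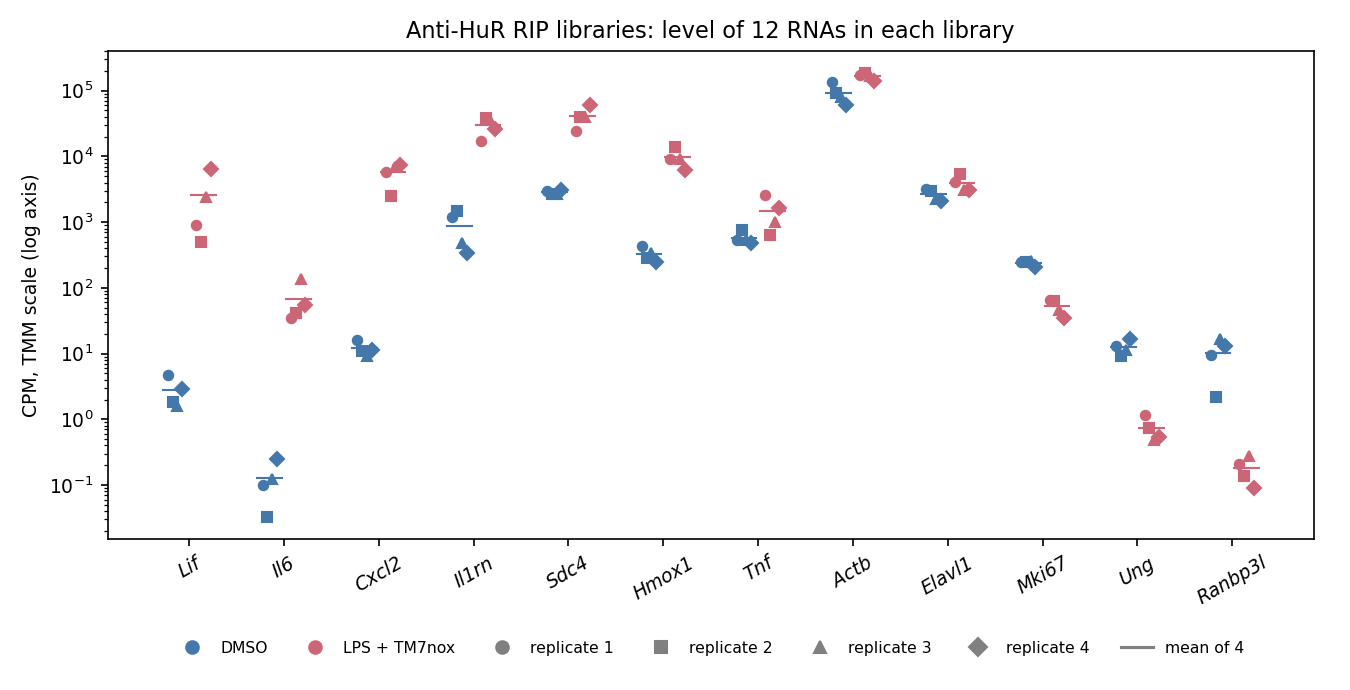
Level of 12 RNAs in each of the 8 anti-HuR RIP libraries, in CPM on a logarithmic axis (DMSO blue, LPS+TM7nox red, shape for the replicate number, bar for the mean of 4). The groups lie apart for Lif, Il6, Cxcl2, Il1rn, Sdc4, Hmox1, Mki67, Ung, Ranbp3l and Actb, and overlap for Tnf and Elavl1.

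By the same rule Ranbp3l, which encodes a RAN-binding protein, had the largest decrease, from 9.45, 2.15, 16.4 and 12.9 CPM in DMSO to 0.212, 0.136, 0.28 and 0.09 CPM in LPS+TM7nox. This was a log2 fold change of -5.71 ± 0.68 (SE, adjusted p = 1.6e-06). Its replicate 2 in DMSO was well below the other 3. Egr3, an early growth response factor, went from 15.9, 36.8, 23.2 and 21.5 to 0.594, 1.69, 1.4 and 2.07 CPM. Egr3 fell by 4.22 ± 0.36 (SE) on the log2 scale (adjusted p = 3.31e-07). Ung, the uracil-DNA glycosylase gene, went from 12.9, 9.06, 11.4 and 16.9 to 1.15, 0.745, 0.479 and 0.54 CPM. Ung fell by 4.13 ± 0.35 (SE) on the log2 scale (adjusted p = 1.98e-07). The 10 largest decreases also held St6gal1, a sialyltransferase gene (-3.99 ± 0.40), Gpr183, an oxysterol receptor gene (-3.78 ± 0.35), Fbxo5, an inhibitor of the anaphase-promoting complex (-3.80 ± 0.33), and E2f8, a repressor of the cell cycle programme (-3.60 ± 0.29). Prtg (-4.83 ± 0.30), Kbtbd11 (-3.92 ± 0.44) and the histone gene H3c8 (-3.61 ± 0.43) completed them. Each of the 10 also fell in total RNA, with log2 fold changes between -5.13 for Ranbp3l and -4.09 for Fbxo5.

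Of 20 cytokine genes tested, 20 were called higher with TMM scaling and 17 with library size scaling alone, where none was lower. With TMM scaling their median log2 fold change was 5.89 against 0.00 for all genes. That median is the same with Csf2, which was at 0 in DMSO, set to its lower bound. Tnf, the tumour necrosis factor gene and the classical AU-rich mRNA, was among the least changed of them. It was already at 538, 756, 541 and 476 CPM in the DMSO RIP, and at 2573, 638, 992 and 1629 CPM in LPS+TM7nox, so the treated replicate 2 lay within the DMSO range. Tnf thus rose by 1.27 ± 0.33 (SE) on the log2 scale, with an adjusted p of 0.00525. Its value was 0.68 with library size scaling alone and 1.23 in replicates 1 and 2 alone, and neither passed. Il1b, the interleukin 1 beta gene, went from 0.711, 0.826, 1.15 and 2.51 to 83.3, 120.4, 153 and 101 CPM with no overlap. On the log2 scale Il1b rose by 6.43 ± 0.31 (SE, adjusted p = 2.79e-09). The IgG library of LPS+TM7nox held 502 CPM of Il1b, above all 4 RIP libraries of the treatment. Il1rn, which encodes the interleukin 1 receptor antagonist, was far more abundant, at 1187, 1476, 479 and 338 CPM in DMSO and 17051, 38865, 36064 and 26576 CPM in LPS+TM7nox, where the IgG library had 2010.2 CPM. Its log2 fold change came to 5.01 ± 0.40 (SE) at an adjusted p of 5.6e-07.

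Csf2, the granulocyte-macrophage colony-stimulating factor gene, had no count in the 4 DMSO RIP libraries and 491 counts over the 4 treated ones. Against a floor of 3 counts over the DMSO group, its mean level was at least 260-fold higher. Il10, an anti-inflammatory cytokine gene, went from 0.677, 0.0661, 0.182 and 0 to 9.59, 11.2, 8.75 and 7.56 CPM, and Ifnb1, the interferon beta gene, from 0.0677, 0.0992, 0.182 and 0.0502 to 4.03, 7.11, 27.8 and 11.5 CPM. Their log2 fold changes were 5.15 ± 0.57 and 6.76 ± 0.81 (SE), or 6.44 for Il10 without DMSO replicate 1 and 6.04 for Ifnb1 without LPS+TM7nox replicate 3. The smallest changes of the list were those of Tgfb1 (0.87 ± 0.20, adjusted p = 0.00181), which suppresses inflammation, and of Tnf. The call of Tgfb1 was lost with library size scaling alone and in replicates 1 and 2 alone. Vegfa, the vascular growth factor gene, rose by 1.99 ± 0.26, and its log2 fold change in the RIP of LPS alone against the same DMSO libraries was 0.07.

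Of 18 chemokine and chemokine receptor genes tested, 15 rose and 1 fell, with a median log2 fold change of 4.09, which is the same with Cxcl3, at 0 in DMSO, set to its lower bound. Ccl3, which draws monocytes, went from 378, 668, 226 and 127 to 9608, 8867, 13132 and 6718 CPM, and Ccl4, its close relative, from 824, 1048, 391 and 212 to 11972, 9975, 16016 and 9069 CPM. For Ccl3 the fit gave a log2 fold change of 4.69 ± 0.39 (SE, adjusted p = 6.48e-07). Cxcl10, an interferon-induced attractant of T cells, went from 7.01, 2.78, 2.03 and 2.76 to 135, 143, 138 and 128 CPM. The log2 fold change was 5.15 ± 0.30 (SE, adjusted p = 1.64e-08). The one that fell was Cx3cr1, the fractalkine receptor gene, at 33.1, 21.2, 34.4 and 22.8 CPM in DMSO and 5.43, 4, 1.88 and 1.71 CPM in LPS+TM7nox. This was a log2 fold change of -3.14 ± 0.36 (SE, adjusted p = 6.29e-06).

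Among signalling genes upstream of the cytokines, the median log2 fold change was 0.76 for LPS receptors and adaptors and 2.11 for NF-kB genes. Of 14 LPS receptor and adaptor genes, 9 rose and 2 fell: Irak2, a kinase of the receptor complex, rose by 2.46 ± 0.22, Cd14, the co-receptor, by 1.11 ± 0.24 (a call lost with library size scaling alone and in replicates 1 and 2 alone), and Irak1 fell by 0.67 on the log2 scale. Tlr4, the LPS receptor itself, was at 188, 166, 236 and 178 CPM in DMSO and 235, 235, 226 and 160.1 CPM in LPS+TM7nox, overlapping groups with a log2 fold change of 0.09 ± 0.18 and an adjusted p of 0.692. With library size scaling alone the counts of this list were 3 higher and 4 lower, and Tlr4 was called lower, at -0.54 (adjusted p = 0.0165). NF-kB genes rose in 14 of 15 cases, or in 11 with library size scaling alone, and fell in none, led by Nfkbiz, a nuclear co-activator, which went from 3.28, 6.18, 4.98 and 5.57 to 169, 182, 355 and 280.4 CPM. On the log2 scale Nfkbiz rose by 5.55 ± 0.29 (SE, adjusted p = 9.39e-09). Inhibitors of the pathway were among them, with Tnfaip3 at 3.61 ± 0.23 and Nfkbia at 2.17 ± 0.19.

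Of 14 MAP kinase and phosphatase genes, 8 rose and none fell, and with library size scaling alone 7 rose and 5 fell. Dusp1 and Dusp5, phosphatases that switch MAP kinases off, rose by 4.10 ± 0.29 and 4.86 ± 0.47 (5.46 for Dusp5 without DMSO replicate 1), and Mapkapk2, the kinase that acts on AU-rich mRNA decay, by 1.11 ± 0.20. AP-1 and EGR factors split: 7 of 14 rose, led by Atf3 (5.28 ± 0.41), and 3 fell, namely Egr3, Egr2 (-1.63 ± 0.33) and Fos (-0.94 ± 0.32). Fos overlapped between the groups, at 216, 145, 117 and 100.2 CPM in DMSO and 105, 111, 53 and 47.1 CPM in LPS+TM7nox, and its call was lost without LPS+TM7nox replicate 3, without LPS+TM7nox replicate 4 and without DMSO replicate 1.

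Enzymes of inflammatory mediators rose in 7 of 11 cases and fell in none, and with library size scaling alone 7 rose and 3 fell. Ptgs2, which encodes cyclooxygenase 2, went from 31.8, 15.5, 10.2 and 10.8 to 1850.3, 1569.9, 2724 and 1969 CPM, and the IgG library of LPS+TM7nox stood at 2449 CPM, inside the range of the RIP. Its log2 fold change came to 6.81 ± 0.31 (SE) at an adjusted p of 4.65e-09. Nos2, the inducible nitric oxide synthase gene, went from 0.609, 0.76, 0.668 and 1.46 to 73, 99.1, 153 and 118 CPM, below its IgG level of 504 CPM. Acod1, which makes itaconate, rose by 7.47 ± 0.24 (SE, adjusted p = 2.82e-10). The RIP was not tested against IgG, which had 1 library a treatment. In LPS+TM7nox the mean RIP level lay above the IgG level for 1758 of the 3412 genes called higher (51.5%), beside 52.8% of all genes tested. TMM scaling sets the typical gene equal between RIP and IgG libraries, so the share of all genes above IgG follows largely from the scaling. It does not measure how much RNA the antibody recovered over IgG.

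All 31 interferon-stimulated genes tested rose with TMM scaling, with a median log2 fold change of 3.82, and with library size scaling alone 29 rose and none fell. Rsad2, which encodes the antiviral protein viperin, went from 80.3, 48.6, 38.6 and 36.3 to 3971, 8699.5, 13421 and 11754 CPM. For Rsad2 the fit gave a log2 fold change of 7.46 ± 0.33 (SE, adjusted p = 5.1e-09). Ifit1, which recognises foreign RNA caps, rose by 5.18 ± 0.32, and the smallest changes named here were those of Oas2 (1.20 ± 0.25) and Irf9 (1.09 ± 0.20), whose calls were lost with library size scaling alone, that of Oas2 also in replicates 1 and 2 alone. All 16 costimulatory and antigen-presentation genes tested rose too (13 with library size scaling alone), among them Cd40 (5.30 ± 0.20), Cd274, the PD-L1 gene (5.03 ± 0.29), and H2-D1, a class I heavy chain gene (1.71 ± 0.17).

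Genes of the oxidative and amino acid stress responses formed a further group that rose. Of 19 Nrf2 target and heme genes tested, 16 rose and none fell, and with library size scaling alone 13 rose and 1 fell. Hmox1, which encodes heme oxygenase 1, went from 427, 288, 340.2 and 250.2 CPM in DMSO to 9066, 14128, 9213 and 6182 CPM in LPS+TM7nox, every treated library being far above every DMSO one. The log2 fold change was 4.82 ± 0.26 (SE, adjusted p = 1.1e-08). In the RIP of LPS alone its log2 fold change over DMSO was 0.91. Slc7a11, the cystine importer gene, went from 58.9, 49.2, 39.1 and 32.1 to 2620.2, 2967, 2556 and 2238 CPM, and its log2 fold change with LPS alone was 3.57. Slc7a11 thus rose by 5.78 ± 0.23 (SE) on the log2 scale, with an adjusted p of 5.61e-10. Sqstm1, an autophagy receptor gene, rose by 4.64 ± 0.31, and Gclm, the modifier subunit of glutathione synthesis, by 2.38 ± 0.23. Gclc, the catalytic subunit, had a change of -0.19 ± 0.19 that did not pass (adjusted p = 0.425), and with library size scaling alone it passed at -0.81.

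Tested directly against the RIP libraries of LPS and DMSO, LPS+TM7nox had 1176 genes higher (8.64%) and 1036 lower (7.61%) of 13614, and with the replicate number as a block 4577 genes were called in place of 2212. Replicates 1 and 2 alone gave 789 calls, and replicates 3 and 4 alone 1070. In that comparison 15 of the 19 Nrf2 target and heme genes were higher and none lower. Hmox1 was higher by 3.91 (adjusted p = 7.88e-07), Gclm by 2.76 (4.42e-06), Sqstm1 by 2.37 (0.000183) and Slc7a11 by 2.21 (2.31e-05) on the log2 scale. The 31 interferon-stimulated genes had 6 lower and none higher, the 20 cytokine genes 8 lower and 3 higher, and the 18 chemokine genes 9 lower and 1 higher. Of the 20 mitosis genes 6 were lower, and of the 20 DNA replication genes 5, with none higher in either list. Pax5 had a log2 fold change of 0.59 over LPS alone and was not called. Il1b was lower by 2.37 on the log2 scale than with LPS alone (adjusted p = 7.16e-05), Il10 lower by 1.76 (0.00588) and Cxcl10 lower by 1.54 (0.00211), while Cxcl2 was higher by 2.32 (9.6e-05) and Tnf higher by 1.43 (0.00867). These values share the LPS+TM7nox libraries with the comparison against DMSO.

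Atf4 and integrated stress genes rose in 17 of 18 cases (15 with library size scaling alone), and 10 of the 18 were also higher than with LPS alone. Trib3, a pseudokinase induced by amino acid shortage, went from 0.948, 2.51, 1.79 and 2.21 to 69.7, 40.2, 69.3 and 56.2 CPM. On the log2 scale Trib3 rose by 4.91 ± 0.34 (SE, adjusted p = 6.39e-08). Ddit3, which encodes the stress factor CHOP, rose by 3.94 ± 0.32, although GENCODE M39 lists further genes overlapping it on both strands. Heat shock genes rose in 11 of 14 cases, with Hspa1b, whose reads can be shared with its near-identical copy Hspa1a, at 2.98 ± 0.36 and Hspa5, the endoplasmic reticulum chaperone, at 2.39 ± 0.28, and with library size scaling alone 7 rose and 1 fell.

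Most listed genes of cell division fell. All 20 mitosis genes were called lower, with a median log2 fold change of -1.60, and 18 of 20 DNA replication genes were lower with 1 higher, or 19 lower and 0 higher with library size scaling alone. Mki67, the proliferation marker, went from 246, 246, 259.6 and 207 CPM to 65.3, 63.1, 46.4 and 34.3 CPM without overlap. This was a log2 fold change of -2.26 ± 0.21 (SE, adjusted p = 6.51e-07). Ccna2, the cyclin of S phase and mitotic entry, went from 74.3, 52.7, 62 and 49.1 to 14.1, 11.3, 5.39 and 2.61 CPM. Ccna2 fell by 2.88 ± 0.38 (SE) on the log2 scale (adjusted p = 2.74e-05). Rrm2, which supplies deoxynucleotides, fell by 3.26 on the log2 scale. Mcm2, a subunit of the replicative helicase, fell by 1.79. The one listed gene called higher was Cdt1, a replication licensing factor, at 0.57 ± 0.20 (adjusted p = 0.0305), whose log2 fold change was -0.08 with library size scaling alone and whose call was lost in 7 of 16 alternative fits. Pola2, a replication gene outside the list, rose by 2.16 and is described below. In bulk samples such as these, fewer dividing cells and less RNA per cell cannot be told apart.

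The mRNA of HuR was itself recovered in the RIP. Elavl1 stood at 3244, 2987, 2262 and 2082 CPM in DMSO and 4069, 5315, 3105 and 3122 CPM in LPS+TM7nox, against IgG levels of 60.6 and 77.4 CPM. The groups overlapped, and the log2 fold change of 0.49 ± 0.24 did not pass the test (adjusted p = 0.106). With the replicate number as a block it was 0.48 and passed (adjusted p = 0.01), the treated library being the higher in 4 of 4 pairs, while with library size scaling alone it was -0.16. In total RNA the log2 fold change of Elavl1 was 0.00. Among 21 genes for proteins that bind AU-rich elements or drive decay, 9 rose and 4 fell. The shares of all genes tested were 25.1% higher and 23.1% lower. Zfp36, the tristetraprolin gene, went from 69.9, 48, 46 and 37.8 to 567, 999, 1009.7 and 865 CPM. The log2 fold change was 4.02 ± 0.23 (SE, adjusted p = 1.05e-08). Zc3h12a, the Regnase-1 gene, rose by 3.59 ± 0.15, while Zfp36l2 fell by 1.26 and Tial1 by 0.76 on the log2 scale, a call that Tial1 lost without LPS+TM7nox replicate 3 and in replicates 1 and 2 alone. With library size scaling alone this list had 4 higher and 8 lower.

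Of 30 mRNAs reported as HuR targets, 18 rose and 5 fell, with a median log2 fold change of 0.85, and with library size scaling alone 11 rose and 8 fell. Of all genes tested, 25.1% were higher and 23.1% lower. In total RNA 15 of the 30 rose and 7 fell, and 1 of the 30 passed the test of RIP against RNA changes. Those that rose included Hmox1, Ptgs2, Il6 and Myc (3.73 ± 0.79, or 5.14 without DMSO replicate 1), a transcription factor gene whose DMSO libraries ran from 2.26 to 71.0 CPM. Those that fell included Ccnd1, the cyclin D1 gene, at 947, 747, 708 and 679 CPM in DMSO and 233, 340.0, 265 and 381 CPM in LPS+TM7nox. This was a log2 fold change of -1.40 ± 0.20 (SE, adjusted p = 3.57e-05). Bcl2, an inhibitor of apoptosis, fell by 1.82 on the log2 scale. Ptma, the prothymosin alpha gene, was very abundant, at 8989, 9042, 10711 and 9171 CPM in DMSO, and its change of -0.43 ± 0.22 did not pass (adjusted p = 0.127). It passed with the replicate number as a block (-0.47, adjusted p = 0.0329), without LPS+TM7nox replicate 2 (-0.66) and with library size scaling alone (-1.09).

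A few RNAs took a large share of the RIP counts. They were ranked by their mean share over both groups, and Sdc4 and Il1rn would not have been among the first 10 on the DMSO libraries alone, so that their shares are higher in LPS+TM7nox follows in part from the ranking. Actb, the beta-actin mRNA, took 5.78 to 12.8% of counts in DMSO and 8 to 11.7% in LPS+TM7nox. In the IgG libraries of DMSO and LPS+TM7nox its shares were 0.618% and 0.653%. On the log2 scale Actb rose by 0.80 ± 0.26 (SE, adjusted p = 0.02). That call was lost in 7 of 16 alternative fits: with library size scaling alone, where the value was 0.16, with no filter (0.79), in replicates 1 and 2 alone (0.59), in replicates 3 and 4 alone (1.06), and without DMSO replicate 2 (0.77), 3 (0.69) or 4 (0.62). Sdc4, a heparan sulphate proteoglycan gene, was at 2941, 2668, 2659 and 3085 CPM in DMSO and 24450.5, 40283, 39928 and 60640.5 CPM in LPS+TM7nox, which is 0.249 to 0.297% of counts in DMSO and 1.64 to 3.4% in LPS+TM7nox. Its log2 fold change came to 3.80 ± 0.26 (SE) at an adjusted p of 4.82e-08. Il1rn took 0.0325 to 0.146% of counts in DMSO and 1.14 to 2.18% in LPS+TM7nox. Pfn1, the profilin gene, did not pass the test (adjusted p = 0.367), and its log2 fold change was negative with library size scaling alone. BC005537 took 1.11 to 1.36% in DMSO and 0.337 to 0.578% in LPS+TM7nox. Its log2 fold change was -0.70 (adjusted p = 0.0187), a call lost in 5 of 16 alternative fits. Gm23935 took 0.643 to 2.25% and 1.11 to 1.76%, and its change did not pass (adjusted p = 0.146).

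**Figure D3:**
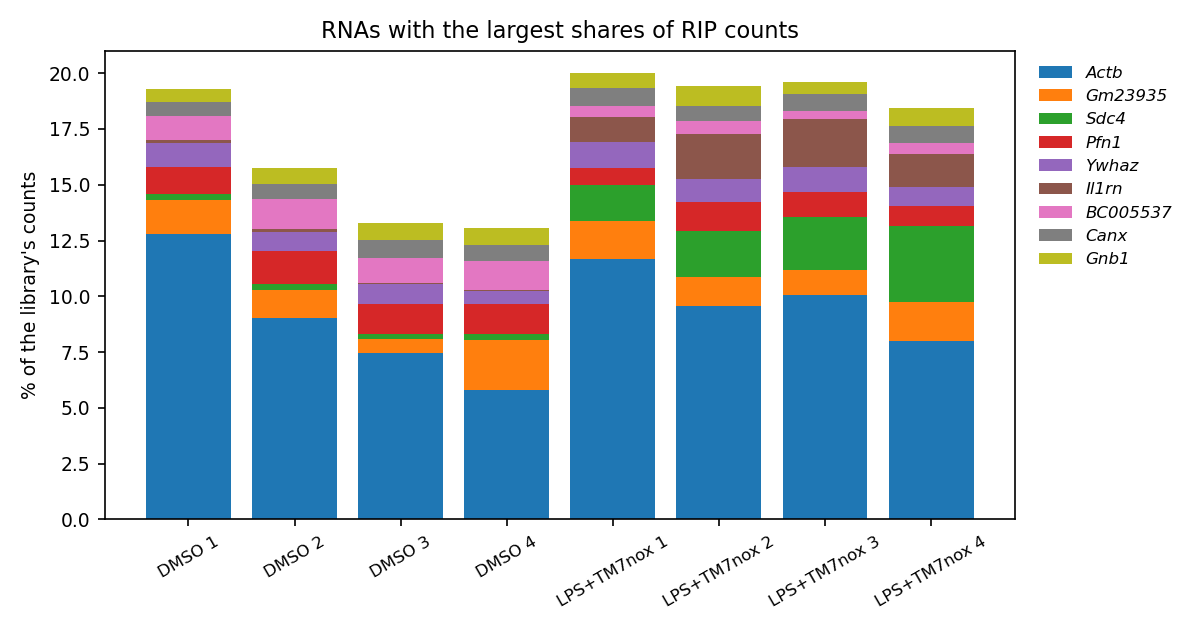
Share of each RIP library's counts, in %, taken by 9 of the 10 RNAs with the largest mean share over the 8 libraries (stacked bars, 1 bar a library). Together the 9 took 13.1 to 19.3% in DMSO and 18.4 to 20.0% in LPS+TM7nox. Because the ranking used both groups, the sums and the wider green (Sdc4) and brown (Il1rn) segments in the treated libraries are partly set by the choice of RNAs.

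Counts in several metabolic and structural lists also depended on the scaling. Of 18 glycolysis and hypoxia genes, 11 rose, led by the glucose transporter gene Slc2a1 at 2.33 ± 0.20, and with library size scaling alone 3 rose and 2 fell. The one that fell was Pdk1, which restrains pyruvate oxidation, at -2.02 ± 0.23. Sterol and LXR genes had 9 lower and 2 higher of 21, or 16 lower and 0 higher with library size scaling alone. Those that fell included Scd2, a fatty acid desaturase gene, at 368, 581, 1047 and 1159 CPM in DMSO and 129, 141, 87.8 and 91.7 CPM in LPS+TM7nox. Actin genes rose in 14 of 20 cases and ribosomal protein genes in 47 of 90 with 2 lower, but with library size scaling alone the actin list had 0 higher and 2 lower and the ribosomal list 2 higher and 10 lower. Ribosomal protein genes have many near-identical pseudogenes, so their counts are less certain. Lysosome and phagocytic genes rose in 12 of 21 cases, or in 8 with 1 lower under library size scaling alone, Ctsb, the cathepsin B gene, by 1.39 ± 0.21. The 9 mitochondrially encoded genes tested had a median log2 fold change of 0.14, and with library size scaling alone 3 of them were lower. Of 20 macrophage transcription factor genes, 10 rose and 4 fell, or 8 and 5 with library size scaling alone, with Klf6 at 3.39 ± 0.24 and Cebpa at -1.67 ± 0.29.

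Most changes in the RIP had a counterpart in total RNA. The same comparison in total RNA called 2926 genes higher (23.7%) and 2924 lower (23.6%) of 12369. Over the 11782 genes tested in both, the log2 fold changes had a Pearson r of 0.926 and a Spearman rho of 0.887, given as a description across genes, which are not independent. Of these genes 5768 were called in the RIP and 5755 in RNA. Called in both were 4415, which is 76.5% of these RIP calls and 76.7% of these RNA calls, and 4412 of the 4415 had the same direction. Txlng, H60b and Suclg2 were the 3 called in opposite directions, chosen here after their values were seen, and none passed the test of the difference.

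**Figure D4:**
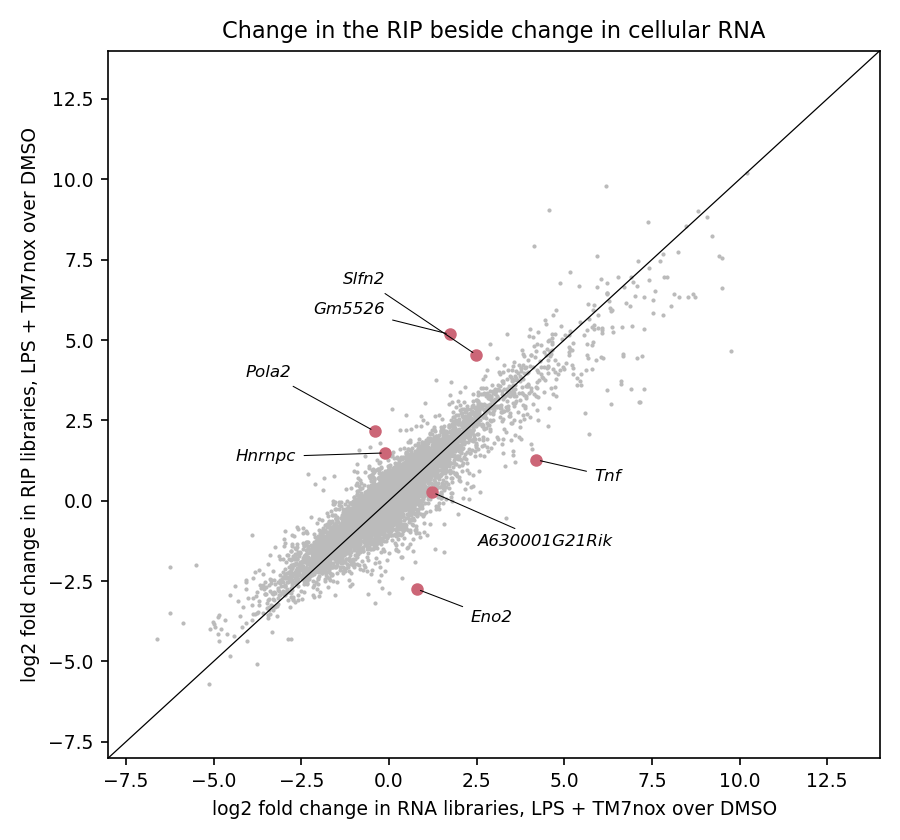
Log2 fold change of LPS+TM7nox over DMSO in the anti-HuR RIP (vertical) against that in total RNA (horizontal) for the 11782 genes tested in both (grey), with the line of equal change. The 7 named genes in red passed the test of the difference between both changes.

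The difference between the RIP change and the RNA change was tested as an interaction over 24 libraries, and 7 of 14311 genes passed: 4 higher (0.028%) and 3 lower (0.021%), with 891 at an unadjusted p under 0.05. The count was 53 by DESeq2 and 37 with the replicate number as a block, and all 7 were among the calls of each. Without LPS+TM7nox RIP replicate 1 it was 13, with replicates 1 and 2 alone it was 0 by edgeR (476 genes at an unadjusted p under 0.05), and with replicates 3 and 4 alone it was 7, with Hnrnpc, Eno2 and A630001G21Rik not among them. Pola2, a subunit of DNA polymerase alpha that starts new DNA strands, was at 14, 14.2, 15.2 and 11.7 CPM in the DMSO RIP and 47.7, 75, 57.6 and 77.7 CPM in the LPS+TM7nox RIP. In total RNA it was at 56.4, 33.6, 43.6 and 41 CPM in DMSO and 35.6, 27.6, 35.6 and 35.2 CPM in LPS+TM7nox. The RIP rose by 2.16 ± 0.19 while the RNA value was -0.41, and the difference was 2.44 (adjusted p = 2.75e-06). The IgG libraries held 48.2 CPM of Pola2 in DMSO, above all 4 DMSO RIP libraries, and 40.7 CPM in LPS+TM7nox, below all 4 treated ones. Hnrnpc, which encodes a nuclear protein that binds U-rich RNA, was at 204, 217, 229 and 251 CPM in the DMSO RIP and 531, 737, 637 and 739.7 CPM in the treated RIP, against 142, 137, 146 and 153 CPM and 132, 130.0, 152 and 136 CPM in total RNA. Its difference was 1.48 (adjusted p = 0.000981), and the IgG libraries held 142 and 165 CPM.

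Slfn2, a schlafen gene that is induced by interferon, rose by 4.54 ± 0.29 in the RIP and by 2.49 in RNA, a difference of 1.91 (adjusted p = 0.0287). It was at 119, 68.4, 43.9 and 40.3 CPM in the DMSO RIP and 1219, 1682, 1822 and 1921 CPM in the treated RIP. The IgG libraries held 79.6 and 632 CPM of it. Slfn2 lies at chr11:82955609-82961504 across from Gm20234 and Slfn10 on the other strand. Gm5526, annotated as a transcribed processed pseudogene, had a difference of 3.36 (adjusted p = 4.51e-05), from 0.203, 0.331, 0.577 and 0.301 to 11.6, 14.2, 13.9 and 15.2 CPM in the RIP, beside 0.571 and 2.84 CPM in IgG. Its reads may be shared with a related copy or with a gene that overlaps it on the same strand. Slfn2 lost its call in 8 of the 16 fits that left out 1 library, and its direction was the same in all of them.

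Tnf was the one of 20 cytokine genes that passed the test of RIP against RNA changes, and it rose less in the RIP. For the 19 not called, a difference may have been missed. In total RNA it went from 54, 76.7, 43.2 and 36.4 CPM in DMSO to 796, 783, 1159 and 1224 CPM in LPS+TM7nox, a log2 fold change of 4.21, beside 1.27 in the RIP. The difference was -3.05 (adjusted p = 0.001), and it was negative in every alternative fit. In DMSO the RIP level of Tnf was above the IgG level of 48.2 CPM in all 4 libraries, and with LPS+TM7nox the IgG level of 1348 CPM lay inside the range of the RIP. In the RIP of LPS alone the log2 fold change of Tnf over DMSO was -0.16. Eno2, a neuronal enolase gene of glycolysis, was at 10.8, 18.1, 12.1 and 19 CPM in the DMSO RIP and 2.76, 0.61, 1.56 and 4.68 CPM in the treated RIP, while total RNA held only 0.424, 1.72, 1.22 and 1.61 CPM and 3.5, 1.54, 2.02 and 2.38 CPM. Its difference was -3.54 (adjusted p = 0.00366), and the IgG libraries held 2.8 and 2.92 CPM. A630001G21Rik had a difference of -1.07 (adjusted p = 0.0336), a call lost in 19 of 23 alternative fits.

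**Figure D5:**
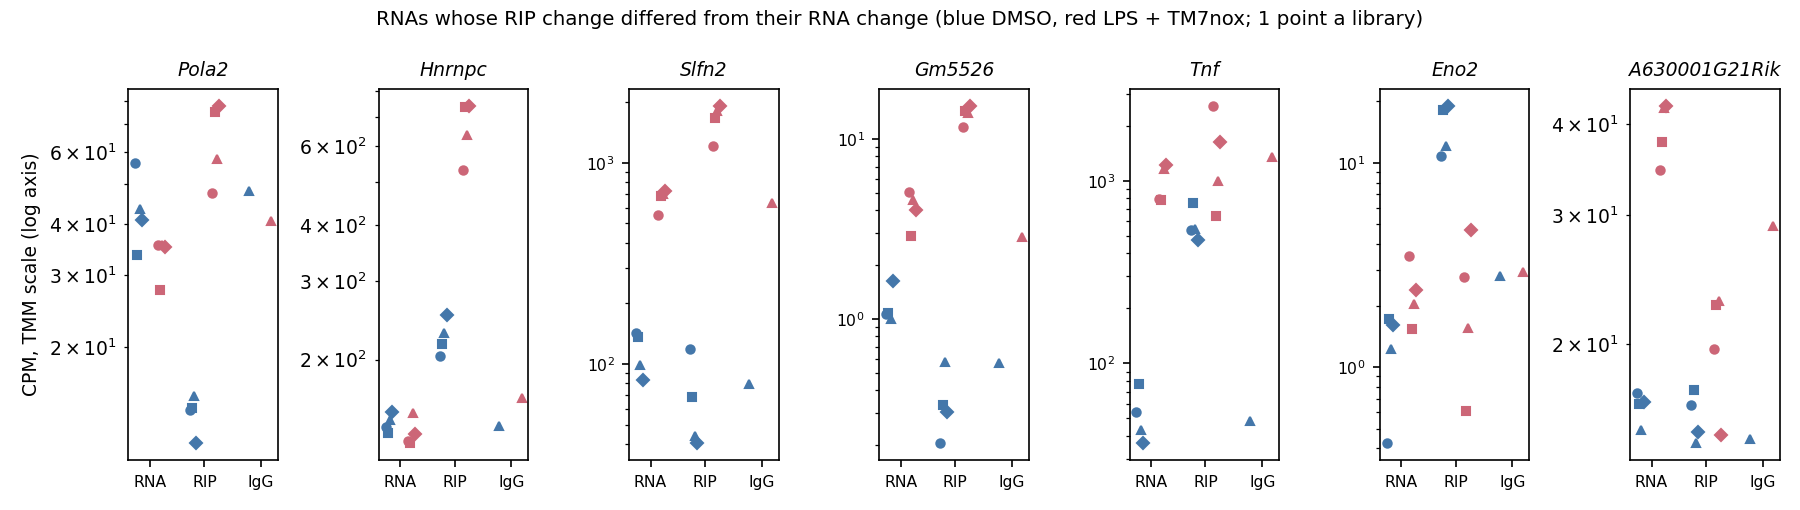
Level of the 7 RNAs that passed the test of RIP against RNA changes, in CPM on logarithmic axes with a scale of their own, in total RNA, anti-HuR RIP and IgG libraries (DMSO blue, LPS+TM7nox red, 1 point a library, shape for the replicate number). Pola2 and Hnrnpc separate by treatment in the RIP and overlap in total RNA, and Tnf separates in total RNA and overlaps in the RIP.

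The 3′ UTRs of the changed genes were compared by the ATTTA pentamer, searched on the sense strand of the annotated 3′ UTR. At least 1 ATTTA stood in 78.0% of 3004 coding genes called higher, in 73.1% of 2369 called lower and in 73.4% of all 10754 tested with a 3′ UTR. Median 3′ UTR lengths were 1503, 1425 and 1362 bases, so the genes called higher also had the longest 3′ UTRs. Per kb of 3′ UTR the genes called higher, those called lower and all tested held 2.01, 1.67 and 1.82 copies of ATTTA. The longer motif TATTTAT, which can overlap ATTTA, stood in 37.8%, 32.0% and 32.9%. These shares are descriptions without a test.

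Some classes of transcripts that are not coding had medians below 0. Of 591 genes of the class TEC (transcript models awaiting experimental evidence) 276 were lower and 19 higher, with a median log2 fold change of -1.24, and of 87 sense intronic genes 35 were lower and 2 higher. Coding genes had a median of 0.07. In total RNA the TEC median was -0.37 over the 146 that could be tested. Together with antisense genes these classes took 0.202 to 0.359% of counts in the DMSO RIP libraries and 0.0936 to 0.137% in the LPS+TM7nox ones, and the IgG libraries held 0.245% and 0.101%. Without DMSO replicate 2 the DMSO libraries held 0.202 to 0.213%, still above each treated library.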

How the data were processed

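RNA from anti-HuR RIP, control IgG and total RNA of RAW 264.7 cells was sequenced in 27 libraries. The deposited table holds read counts per gene from the authors, for 55483 Ensembl IDs, unnormalized. The submitters' processing notes name FastQC 0.11.9, STAR, HTSeq, DESeq2 and GRCm39; of the strand setting and annotation release nothing is stated in these notes or the labels. All columns were mapped to samples by name.

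Counts were tested in R 4.3.3 with edgeR 4.0.16 (quasi-likelihood, two-sided, TMM scaling, filterByExpr with a minimum count of 10, Benjamini-Hochberg, called under 0.05), over 12 RIP libraries, 12 RNA libraries or all 24. DESeq2 1.42.0 was an alternative. Other alternatives were other size factors, no filter, a replicate block, leaving out each library, replicates 1 and 2 or 3 and 4 alone, and, added after the data were seen, scaling by library size alone. CPM values are on one TMM scale over 27 libraries. Scripts were checked on simulated data, where large changes were recovered but many smaller ones were not called, so a change that did not pass may have been missed.

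Replicates differed by more than sampling noise (chi-square per gene 72.2 to 192 over 12 pairs). Same-numbered DMSO and LPS+TM7nox libraries deviated together (r = 0.259 to 0.459 in the RIP, 0.192 to 0.228 in RNA). A pairing by replicate number was thus read from the data and not from the labels. The main tests, with their SE and adjusted p, did not use this pairing. It entered only as the replicate block, an alternative fit, where the RIP comparison had 8409 calls in place of 6553.

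The genes named were the 10 with the largest change each way among called genes with a mean of at least 5 CPM, no overlap between groups and no predicted symbol, the 6 largest each way of the RIP-minus-RNA test by the same rule, the 10 with the largest share of counts, of which 9 are reported here, and members of the gene lists. Gm5526, A630001G21Rik, Txlng, H60b and Suclg2 fall outside that rule and were named after their values were seen. The comparison, members and lists were chosen with earlier results of these data known. Of the 55483 IDs, 51731 matched GENCODE M39, and for coding genes the 3′ UTR of the canonical transcript was used.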

Additional observations from a re-analysis of the deposited data

How the results depend on the processing

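The RIP comparison had 4505 to 8409 calls, beside 6553, under the 16 alternatives run, with 5676 to 6585 when 1 library was left out. Of 137 RNAs followed, 106 kept direction and call in every alternative that tested them. With library size scaling only, 6068 of the 6553 called genes had the same direction, and the log2 fold change turned to -0.16 for Elavl1, -0.39 for Pfn1, -0.54 for Tlr4, -0.052 for Map3k8, -0.41 for Abca1, -0.0034 for Insig1, -0.076 for Cdt1 and -0.22 for Khsrp. That of Tlr4 was also -0.19 in replicates 3 and 4 alone, and -0.000795 to 0.18 with 1 library left out. The cause of the other changes below was not tested. In total RNA replicates 1 and 2 alone gave 2246 calls beside 5850, a fit of fewer samples, and leaving out 1 library gave 5131 to 6209. For the RIP change minus the RNA change, beside 7 calls, DESeq2 gave 53, no filter 48, the replicate block 37, library size scaling only 14, replicates 1 and 2 alone 0, and leaving out 1 library 5 to 13. Against LPS, beside 2212 calls, the replicate block gave 4577, replicates 1 and 2 alone 789, replicates 3 and 4 alone 1070, and leaving out 1 library 1495 to 2210. The replicate block moved no other count of calls by over 1.5 times. Csf2, at 0 in DMSO, has only a lower bound, and the fold changes of Tpbg, Il6, Pax5 and Vmn2r90 rest on few DMSO counts, which limits their precision and order. The RIP was not tested against IgG.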

Other observations

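Of the 10 macrophage markers tested in the anti-HuR RIP, 3 rose (Adgre1, Cd14 and Fcgr1), 1 fell (Csf1r) and 6 were not called. Of all genes tested, 25.1% were higher and 23.1% lower, so these counts do not set the markers apart. Csf1r, the receptor for macrophage colony-stimulating factor, was at 221, 131, 173 and 166 CPM in DMSO and 160.3, 76.2, 96.5 and 62.8 CPM in LPS+TM7nox, groups that overlapped, and it fell by 0.87 on the log2 scale (edgeR, adjusted p = 0.0182). Axl, a receptor for dying cells, went from 5.25, 3.27, 6.49 and 5.62 to 10.3, 17.8, 31 and 37.3 CPM and rose by 2.16 ± 0.37 (SE). Irf8, a macrophage lineage factor, went from 15.9, 17.9, 26.9 and 24.3 to 35.2, 47.8, 122 and 118 CPM, with the treated replicates 3 and 4 well above replicates 1 and 2, and it rose by 1.86 ± 0.45. Csf1r, Axl and Irf8 were chosen for description after their values were seen.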
